A study of Mus musculus with 8 samples.

Results

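The regions described are the peaks called for trimethylated lysine 4 of histone H3 (H3K4me3) in mouse skeletal muscle, with their width and their fold over input. The list held 19818 peaks, of which the 19790 on chromosomes 1 to 19 and X were used, out of 189412 peaks in the 6 lists of the series. The series asked where the glucocorticoid receptor (GR) binds in muscle and what chromatin lies there. Nuclei were extracted from skeletal muscle of wild-type (WT) C57/Bl6J mice aged 10 to 12 weeks, and chromatin was precipitated for CTCF, Pol2, GR and the histone marks H3K4me1, H3K4me3 and H3K27ac, with 1 library for each. The H3K4me3 antibody was from Abcam, and its peaks were called against the second of 2 inputs, which the H3K4me3 and CTCF libraries share, while the other 4 antibodies belong with the first input. No treatment or other genotype enters, and the labels say neither which muscles nor how many animals were used.

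H3K4me3 is laid down around transcription start sites (TSS) by the SET1 and MLL enzyme complexes. It is found at most active promoters and at many CpG-rich promoters with little transcription, and enhancers tend to carry H3K4me1 in its place. H3K27ac marks active promoters and enhancers, Pol2 is the polymerase that makes mRNA, and CTCF is a DNA-binding protein that organises chromatin loops. In many tissues the widest H3K4me3 domains lie over genes that define the tissue. Muscle nuclei come from fibres and from endothelial, connective tissue, immune and satellite cells, so a mark present in fewer cells and a weaker mark in every cell cannot be told apart here.

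CpG content tended to be higher at promoters with H3K4me3 than at those without, and the promoters below are examples. Each runs from 250 bases before to 50 bases after the start in RefSeq annotation of GRCm38.p6, with CpG in capitals. The strongest peak near a protein-coding start lay beside Fgfbp3, the strongest with the start inside lay over Btaf1, and the widest lay over Irs1. Ckm stands for the muscle genes, and Alb, the liver gene for serum albumin, had no peak. The windows are Fgfbp3 at chr19:36919550-36919849 (minus strand), Btaf1 at chr19:36925829-36926128 (plus), Irs1 at chr1:82291390-82291689 (minus), Ckm at chr7:19410844-19411143 (plus) and Alb at chr5:90460620-90460919 (plus).
Fgfbp3: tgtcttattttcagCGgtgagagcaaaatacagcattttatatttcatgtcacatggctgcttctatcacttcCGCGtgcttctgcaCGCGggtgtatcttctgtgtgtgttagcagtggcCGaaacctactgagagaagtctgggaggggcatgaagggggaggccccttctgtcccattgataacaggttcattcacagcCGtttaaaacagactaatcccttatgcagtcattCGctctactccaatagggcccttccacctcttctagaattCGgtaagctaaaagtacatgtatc
Btaf1: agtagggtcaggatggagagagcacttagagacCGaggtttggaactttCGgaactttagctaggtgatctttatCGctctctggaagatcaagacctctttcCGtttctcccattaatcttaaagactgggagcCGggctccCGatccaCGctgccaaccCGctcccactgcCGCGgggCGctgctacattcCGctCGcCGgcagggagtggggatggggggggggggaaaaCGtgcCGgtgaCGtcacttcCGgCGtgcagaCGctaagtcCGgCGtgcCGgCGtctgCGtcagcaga
Irs1: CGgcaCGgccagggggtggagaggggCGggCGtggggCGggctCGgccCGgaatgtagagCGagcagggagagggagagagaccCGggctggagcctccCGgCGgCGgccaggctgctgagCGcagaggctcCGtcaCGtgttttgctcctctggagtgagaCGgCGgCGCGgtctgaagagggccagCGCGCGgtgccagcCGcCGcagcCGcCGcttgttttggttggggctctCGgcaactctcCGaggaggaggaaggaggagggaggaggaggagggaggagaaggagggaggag
Ckm: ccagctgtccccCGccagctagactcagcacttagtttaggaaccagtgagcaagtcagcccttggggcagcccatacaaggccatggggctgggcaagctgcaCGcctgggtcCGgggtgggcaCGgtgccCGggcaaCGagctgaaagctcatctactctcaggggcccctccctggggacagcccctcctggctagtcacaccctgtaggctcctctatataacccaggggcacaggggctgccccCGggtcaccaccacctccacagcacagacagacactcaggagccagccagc
Alb: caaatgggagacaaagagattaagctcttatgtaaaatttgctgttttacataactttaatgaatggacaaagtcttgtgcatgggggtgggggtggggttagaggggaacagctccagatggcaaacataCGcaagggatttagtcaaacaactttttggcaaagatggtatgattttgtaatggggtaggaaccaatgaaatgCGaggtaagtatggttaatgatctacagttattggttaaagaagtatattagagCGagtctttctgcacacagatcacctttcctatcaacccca
These windows held 9 CpG for Fgfbp3, 25 for Btaf1, 28 for Irs1, 7 for Ckm and 3 for Alb. The Fgfbp3 window lies outside its peak. The CpG observed-over-expected ratio was 0.777 in that peak and 0.551 in the window.

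The H3K4me3 peaks were mostly promoter peaks, and those at promoters were wider and stronger than the rest. Of 19790 peaks, 14239 (72.0%, with an exact 95% interval of 71.3 to 72.6%) were near a protein-coding TSS, meaning within 1 kb of it, and in 11954 of these the TSS was inside the peak. A further 641 (3.24%, 3.00 to 3.50%) lay near the TSS of a long non-coding RNA (lncRNA) gene only. The other 4910 (24.8%, 24.2 to 25.4%) had neither within 1 kb. These intervals cover the counting of peaks, taken as independent, and not the spread between animals. With 1 library and no read counts there is no replicate check, the depth is unknown, and no p-value is given.

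Fold here is the enrichment over input that the authors' peak caller gave each peak, used to rank peaks within this list. Protein-coding peaks had a median fold of 28.7 (quartiles 12.9 and 42.5) and a median width of 1185 bases (764 and 1605). For lncRNA-only peaks the medians were a fold of 9.66 and 677 bases. Peaks with no TSS had a median fold of 6.66 (5.03 and 10.7) and a median width of 354 bases (243 and 611). The interquartile ranges of protein-coding and no-TSS peaks did not overlap for either measure. The median fold of protein-coding peaks was 4.31 times that of no-TSS peaks, but within quintiles of width (5 groups of equal number) the median of this ratio was 1.81. In the narrowest quintile, up to 355 bases, the ratio was 0.985.

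Width and fold moved together. Spearman's rho across all 19790 peaks was 0.777, and it was 0.649 within the protein-coding class, 0.826 within the lncRNA-only class and 0.554 among no-TSS peaks. All peaks share 1 library and 1 input, and these values are descriptions. The smallest width, 191 bases, was shared by 598 peaks and is the floor of the list. At the other end 87 peaks were over 4000 bases.

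**Figure D1:**
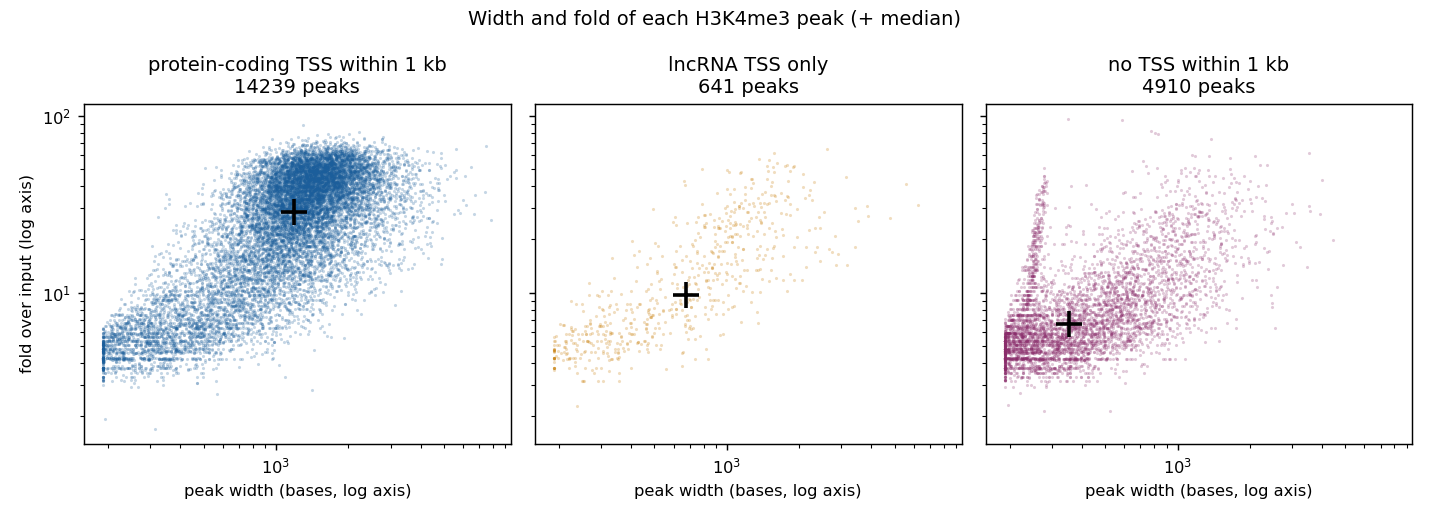
Each point is 1 H3K4me3 peak, with width in bases against fold over input, both on log axes, in panels for the 3 classes, and the cross marks the median. Protein-coding peaks gather around 1185 bases and a fold of 28.7, and the no-TSS panel shows a separate steep band of narrow peaks of high fold.

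The 10 highest folds were shared between promoters and other places. The strongest promoter peak, at chr19:36918163-36919456, had a fold of 87.9 and a width of 1294 bases, and the nearest start was that of Fgfbp3, a secreted carrier of growth factors, 159 bases outside it. The next peak along, chr19:36925118-36927333, covered the start of Btaf1, a regulator of TATA-binding protein, with a fold of 81.1. Bod1l, which protects replication forks, had 78.8. Vamp2, a vesicle fusion protein, had 78.3, and Btf3, a subunit of the nascent polypeptide-associated complex, had 77.4. These 5 peaks were between 1294 and 2216 bases wide and overlapped H3K27ac, Pol2, H3K4me1 and GR peaks. The other 5 of the 10 highest folds belonged to peaks with no protein-coding or lncRNA TSS within 1 kb and are described further on.

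The widest peaks were not the strongest, and lay over genes of several kinds. The widest, 7890 bases at chr1:82284391-82292280, covered the start of Irs1, the docking protein of the insulin receptor, with a fold of 25.7. Setd1b, a catalytic subunit of a SET1 complex that itself deposits H3K4me3, had a peak of 7454 bases and a fold of 67.5. That peak also covered a start of the lncRNA AI480526 and a RefSeq start of Rhof. The peak of 7428 bases on chromosome 11 held the starts of Pfn1, an actin-binding protein, and Eno3, the muscle enolase. Hoxc10, a limb patterning factor, had 6758 bases, and Txnip, an inhibitor of glucose uptake, had 6679. Brd2, a reader of acetylated histones, shared a peak of 6474 bases with H2-DMa. Sgk1, a kinase induced by glucocorticoids, had 6130 bases, and Irf2bp2, a transcriptional corepressor, had 6024. The remaining members of the widest 10 lay over the lncRNA Lncpint (6270 bases) and over Gm5105 and 1110002E22Rik (6169). Their folds ran from 25.7 to 67.5. None of the 10 widest was among the 10 of highest fold.

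At the other end, the lowest fold was 1.70 for a peak of 313 bases near Gm10717 on chromosome 9, all of it soft-masked as repeat. The next were 1.93 near Sfi1 on chromosome 11 and 2.14 for a peak with no TSS at chr9:35305320-35305596. The lowest −log10 q-value in the list was 1.33.

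H3K4me3 was strongest just after the start of the gene. At the 14239 protein-coding peaks the summit lay at a median of 143 bases downstream of the nearest protein-coding TSS (quartiles 46 and 230), and in 80.1% it was downstream. Among the 11119 peaks with a single annotated gene within 1 kb, the place was tighter at strong peaks. In the lowest quintile of fold (the weakest 20% of peaks), the summits' quartiles were -126 and 472 bases around a median of 142, with 66.2% downstream. In the highest quintile they were 102 and 228 bases around a median of 165, with 88.3% downstream. Peaks with starts on both strands within 1 kb were wider, in whatever arrangement the genes lay. The 2947 such protein-coding peaks had a median width of 1447 bases and a median fold of 34.3. The 11292 with starts on 1 strand had 1125 bases and 26.7.

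Gene by gene, 13310 of 21755 protein-coding genes (61.2%) had an H3K4me3 peak within 1 kb of a TSS, and 11279 of them had exactly 1 peak there. Of 9603 lncRNA genes, 2122 (22.1%) had one. For 1563 of these the strongest peak was also within 1 kb of a protein-coding start, with a median fold of 33.3, and for the other 559 the median was 11.9. Where a gene had several peaks, the one of highest fold stands for it below. On that basis the 13310 genes had a median fold of 33.5 (quartiles 19.6 and 45.2) and a median width of 1308 bases (950 and 1707).

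Promoters with H3K4me3 were rich in CpG. The windows from 250 bases before to 50 after the outermost start of each gene had a median CpG observed-over-expected ratio of 0.738 in genes with a peak and 0.189 in the 8445 without. A gene counted as marked by a peak within 1 kb of any of its starts, so the peak may lie at another start than the window. Ywhaz, with a ratio of 0.041 and a fold of 66.9, is such a gene, and their number was not counted. Of 5214 genes with a ratio up to 0.2, 776 had a peak (14.9%, 13.9 to 15.9%). Of 1549 genes with a ratio over 1.0, 1504 had one (97.1%, 96.1 to 97.9%). Between these ends the share was higher in each bin, at 37.0, 69.7, 88.5 and 95.4%. The median fold of marked genes was 21.4 in the lowest bin, 19.3 in the next and 42.8 in the highest. Across the protein-coding peaks, the CpG ratio of the peak itself had a rho of 0.373 with fold and 0.210 with width, while GC content had 0.035 and 0.001.

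**Figure D2:**
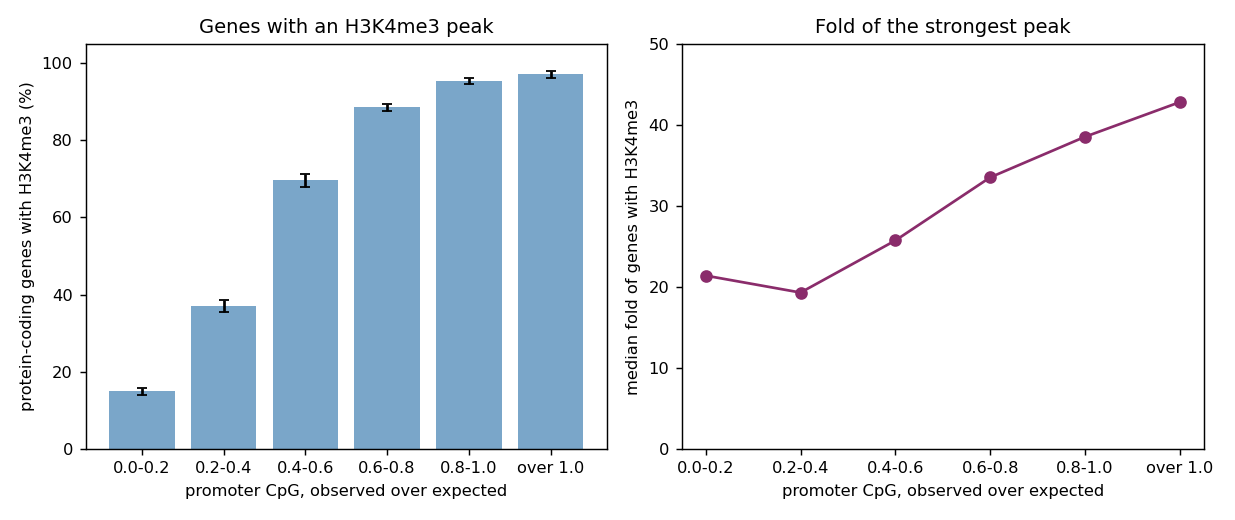
Protein-coding genes are grouped by the CpG observed-over-expected ratio of the 300-base window at their outermost start, which need not be the start with the peak. Bars give the share with an H3K4me3 peak within 1 kb, with exact 95% intervals, from 14.9 to 97.1%, and points give the median fold of the strongest peak in marked genes, from 21.4 in the lowest bin to 42.8 in the highest.

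Short motifs in the same windows differed as well, in shares not adjusted for base composition. The median GC content of the windows was 60% in genes with a peak and 47.7% in those without. The motifs were searched on both strands anywhere in the window, and their matches may overlap each other. The GC box GGGCGG, which binds Sp1-type factors, was in 61.1% of promoters with H3K4me3, 15.4% of those without and 43.4% of all. The TATA box TATAAA was in 7.42, 20.9 and 12.7%. The ETS motif CCGGAAGT was in 7.15, 0.935 and 4.73%. Among marked genes the ETS share went from 1.47% in the lowest quintile of fold to 10.6% in the highest, and the YY1 motif AAGATGGC from 0.826 to 6.54%. The TATA box went the other way, from 10.7 to 5.79%, as did CAGCTG, the E-box that myogenic factors prefer, from 17.8 to 12.9%. The CCAAT motif was in 38.2% of marked and 39.9% of unmarked promoters. Of the 5 windows printed above, that of Irs1 alone holds the GC box and that of Fgfbp3 alone holds TATAAA, on the reverse strand.

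The genes of the muscle fibre had wide peaks of modest fold. The gene lists were chosen with earlier results of these data known, so their counts are descriptions beside the 61.2% of all protein-coding genes. Of 27 fast or common sarcomere and calcium-handling genes, 25 had a peak, and 21 of the 25 were wider than the median marked gene while 2 had a higher fold. Their median width was 1934 bases and their median fold 18.8. In the 2 with a higher fold, the strongest peak lay outside the gene's own start. For Actn3, the fast-fibre alpha-actinin, the peak of fold 48.2 began 686 bases from its start and covered that of Zdhhc24, and a weaker peak lay over the Actn3 start. For the fast light chain Mylpf, the peak of fold 43.4 was 179 bases from its start and covered that of Tbc1d10b. The creatine kinase Ckm came next at 26.98. Acta1, skeletal actin, had 13.7 over 1929 bases, and Ttn, the giant spring of the sarcomere, had 11.5 over 2702 bases. For the fast myosin Myh4, the strongest peak had 13.0 over 1371 bases. That peak lay 471 bases from the nearest Myh4 start and covered no protein-coding start, and a weaker peak lay over a Myh4 start. The other fast myosins on the same chromosome, Myh1 and Myh2, had no peak within 1 kb, and the nearest lay 35784 and 57055 bases from their starts. Both had a Pol2 peak within 1 kb, which only 50 of the 8445 unmarked genes did. Myosin heavy chain genes are close copies, and how shared reads were placed between them is not stated.

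The muscle transcription factors were wider still. Of 14, 12 had a peak, all 12 wider than the median marked gene, with a median width of 2900 bases and a median fold of 25.01. Mef2a had a fold of 55.6, Tead1 50.9 and Mef2d 49.1. Myod1, the master regulator of myogenesis, had 25.3 over 3604 bases, wider than 98.9% of marked genes and stronger than 34.2%. Myf5 and Myog, which act in satellite cells and in forming fibres, had no peak within 1 kb, and the nearest lay 5551 and 8628 bases away. Of 12 slow-fibre genes, 5 had a peak, led by Tpm3 (45.6), Atp2a2 (36.8) and Tnnc1 (20.001). The only peak near Tpm3 covered a start inside the gene and not its outermost start. For Tnnc1 the only peak lay 969 bases outside its start and covered a start of Nisch. Tnnc1 had no Pol2 or H3K27ac peak within 1 kb. The only peak near Myl3 (14.9) lay 176 bases outside its starts and covered a start of Pth1r, and Myl3 had no Pol2 peak within 1 kb. The peak nearest to the slow myosin Myh7 lay 19875 bases from its start. At the neuromuscular junction 8 of 12 genes had one, led by Agrn (48.6), Utrn (42.9) and Lrp4 (28.9).

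Ribosomal, respiratory and housekeeping genes mostly had folds above the median marked gene. All 17 ribosomal protein genes had a peak, 13 of them above that median, with a median fold of 42.3, led by Rpsa (67.0), Rpl5 (53.5) and Rps6 (52.0). All 18 genes of oxidative phosphorylation had one, with a median of 38.6 and 15 above the median marked gene, led by Uqcrfs1 (61.2), Cyc1 (57.7) and Cox5a (55.2). The 3 below that median, named after their values were seen, were Cox8b (23.4), Cox6a2 (19.1) and Cox7a1 (14.5), the subunit isoforms of striated muscle. All 14 housekeeping genes were marked as well, 9 of them above the median, among them Ywhaz (66.9) and Tbp (55.3). Actb, cytoplasmic actin, had 44.0 over 2958 bases, and Gapdh, a glycolytic enzyme, had 35.7 over 5025. The 18 clock genes had a median of 37.1, led by Clock (57.8), Arntl (53.4) and Rora (50.9), with Per1 at 28.5. Nr3c1, which encodes GR, had 57.9 over 3683 bases, and its target Fkbp5, a chaperone that dampens GR, had 44.7 over 1354.

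The enzymes of the mark were themselves strongly marked. All 14 members of the H3K4 methyltransferase complexes had a peak, with a median fold of 48.9 and a median width of 1958 bases, and 8 of the 14 were in the top quintile of marked genes for fold. Setd1b (67.5), Kmt2b (59.5) and Kmt2d (57.3) led. The 5 demethylases had a median of 43.9, led by Kdm1a (53.8), Kdm1b (44.8) and Kdm5b (43.9).

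Genes of the other cells in muscle mostly had folds below the median marked gene, where they had a peak. Of 12 endothelial genes, 11 were marked, none with a fold above the median marked gene, and their median was 6.75. Egfl7 (15.2), Flt1 (13.5) and Cldn5 (10.9) led, and Pecam1, an endothelial adhesion protein, had 6.71 over 340 bases. Of 12 fibroblast and fibro-adipogenic genes, 10 were marked with a median of 9.85, led by Gsn (17.6), Cd34 (14.5) and Pdgfra (13.6), and the collagen gene Col1a1 had 11.8 over 1841 bases. Of 11 satellite cell genes, 8 were marked, led by Spry1 (39.3), Sdc4 (31.0) and Itga7 (22.2). Pax7, the defining factor of satellite cells, had 8.83 over 1342 bases with no Pol2 or H3K27ac peak. Smooth muscle and pericyte genes were marked in 4 of 8, led by Abcc9 (21.4), Pdgfrb (10.7) and Cspg4 (9.39). Schwann cell genes were marked in 5 of 8, among them Prx (30.1) and Mbp (23.8). Of 12 immune genes only Csf1r (7.50) and Mrc1 (3.16) were marked, and of 9 adipocyte genes only Lpl (34.8) and Fabp4 (5.58). The defining markers Ptprc of leukocytes and Adipoq of fat cells had none.

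None of the 10 liver genes had a peak. Of 10 neuronal genes, 3 did, Camk2a (20.9), Map2 (8.70) and Slc17a7 (6.68), and Snap25, a synaptic fusion protein, did not. Of 20 developmental transcription factors of other tissues, 12 were marked, a share near the 61.2% of all protein-coding genes, with a median fold of 6.55 and a median width of 517 bases. En1 (27.9), Lhx2 (13.7) and Foxa1 (12.5) led, and Pax6, the eye and brain factor, had 7.79 over 487 bases. Of these 20 genes, 17 had an H3K4me1 peak within 1 kb, 2 had H3K27ac and 1 had Pol2, where 64.6% of all protein-coding genes had H3K4me1, 52.0% had H3K27ac and 46.8% had Pol2.

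**Figure D3:**
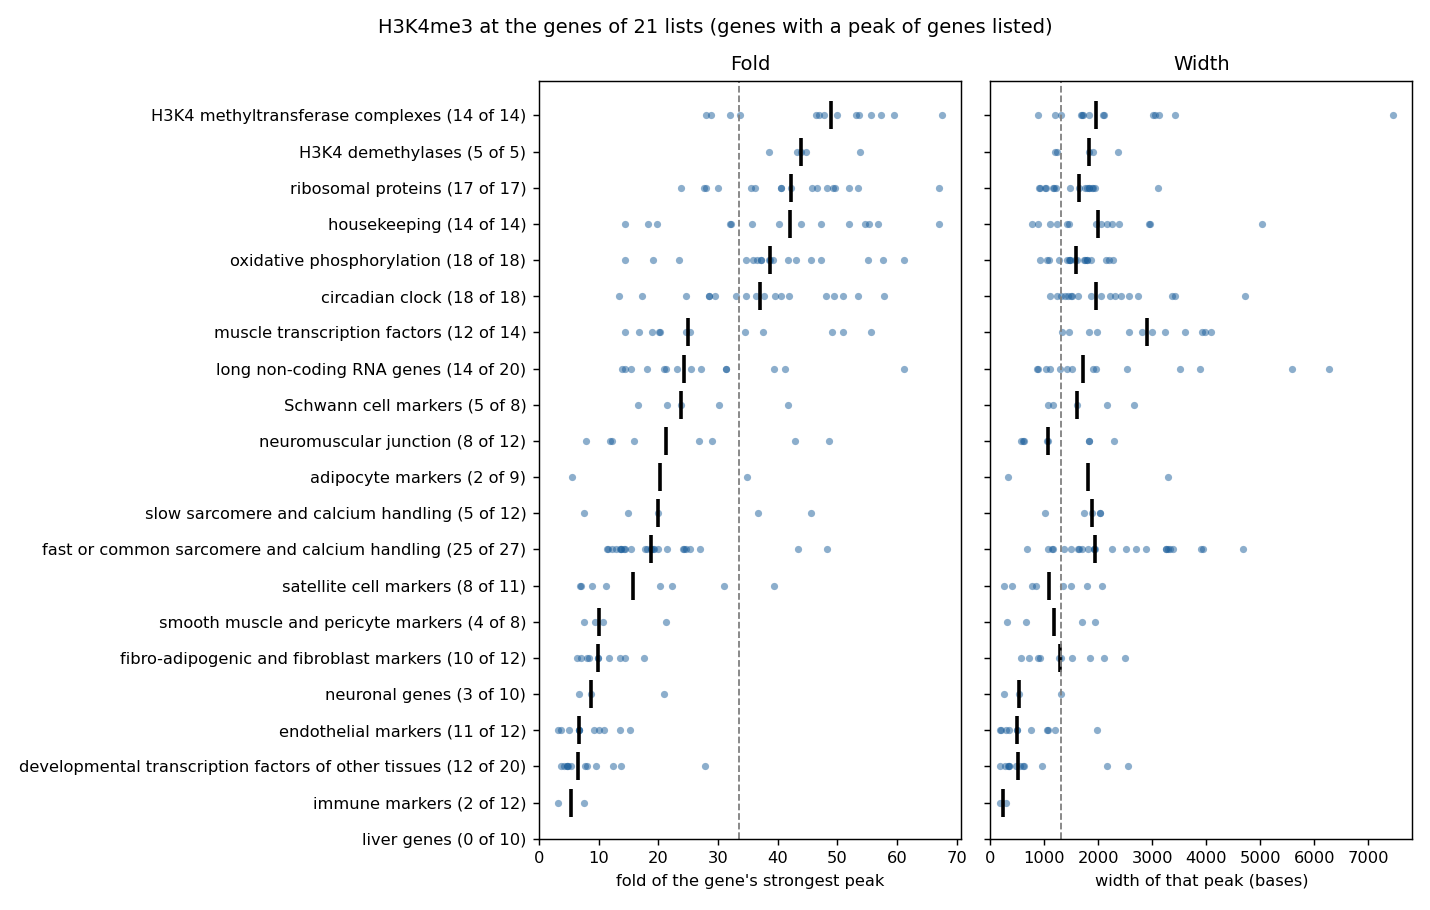
Each point is a gene with an H3K4me3 peak, by the fold (left) or width in bases (right) of its strongest peak, and the black bar is the list's median. Dashed lines mark the medians of all marked protein-coding genes, 33.5 and 1308 bases, and the fast sarcomere genes and muscle transcription factors lie mostly left of the line for fold and right of it for width.

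That low, narrow pattern was not limited to developmental genes. Among the 13310 marked genes, 1948 had neither Pol2 nor H3K27ac within 1 kb, with a median fold of 9.06, a median width of 613 bases and a median promoter CpG ratio of 0.628. The 9968 with both had 38.8, 1445 bases and 0.769. H3K4me1 was within 1 kb of 90.5% of the former and 93.5% of the latter.

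Long non-coding RNA genes had both strong and wide peaks. The highest folds among lncRNA-only peaks were 64.4 at 1810026B05Rik, which RefSeq names Chaserr, 61.4 at Gm8066, 56.8 at 9430091E24Rik, 56.0 at Gm11205 and 54.3 at 2900052L18Rik. The peak at Gm8066 also covered a RefSeq start of the protein-coding Gigyf1. The widest lay over Lncpint (6270 bases), Malat1 (5586), B230312C02Rik (4785), Neat1 (3888) and E130102H24Rik (3834). The one at B230312C02Rik also covered the start of Mir1a-1, a muscle microRNA. Malat1 and Neat1, abundant nuclear RNAs, had folds of 41.3 and 27.2. In a list of 20 genes known for non-coding RNAs, the annotation used classes 19 as lncRNA and Snhg11, which had no peak, as protein-coding. Of the 19, 14 were marked, where 22.1% of all lncRNA genes were. Tug1 (61.1), Malat1 and Gas5 (39.4) led, and H19 was not marked. The Tug1 peak was not among the lncRNA-only peaks, so it also lay within 1 kb of a protein-coding start.

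Stronger H3K4me3 peaks more often overlapped H3K27ac, Pol2 and GR, taking 1 shared base as an overlap. Of all H3K4me3 peaks, 72.0% overlapped H3K27ac, 56.6% Pol2, 82.4% H3K4me1, 51.1% GR and 10.9% CTCF. From the lowest to the highest quintile of fold, H3K27ac overlap went from 39.3% (37.7 to 40.8%) to 99.5% (99.2 to 99.7%), Pol2 from 13.2% (12.1 to 14.3%) to 97.1% (96.5 to 97.6%) and GR from 12.3 to 91.2%. CTCF overlap was 5.03% in the lowest quintile, 13.0% in the next and 11.6% in the highest, and at the summit it was 7.15% in the second-lowest quintile and 0.733% in the highest. A wider peak has more bases to share, and the highest quintile had a median width of 1523 bases against 278. Within quintiles of width the Pol2 share still differed between the top and bottom quintile of fold by a mean of 35.8 percentage points, against 83.9 over all peaks. Of peaks 754 to 1152 bases wide, those with Pol2 had a median fold of 30.5 and those without 14.5. In the narrowest quintile, up to 355 bases, the medians hardly differed. They were 5.58 with Pol2 and 5.36 without, 5.59 and 5.36 for GR, and 5.16 and 5.45 for H3K27ac.

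H3K4me1 behaved otherwise. Its overlap by 1 base was 77.8% in the lowest and 87.4% in the highest quintile, but the share of H3K4me3 summits that lay inside an H3K4me1 peak went from 73.9% (72.5 to 75.2%) down to 34.5% (33.0 to 36.0%). H3K27ac covered the summit in 32.6 and 99.3%, and Pol2 in 5.66 and 35.2%. By class, H3K27ac overlapped 79.7% of protein-coding, 65.8% of lncRNA-only and 50.4% of no-TSS peaks, and Pol2 68.8, 42.1 and 23.1%.

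**Figure D4:**
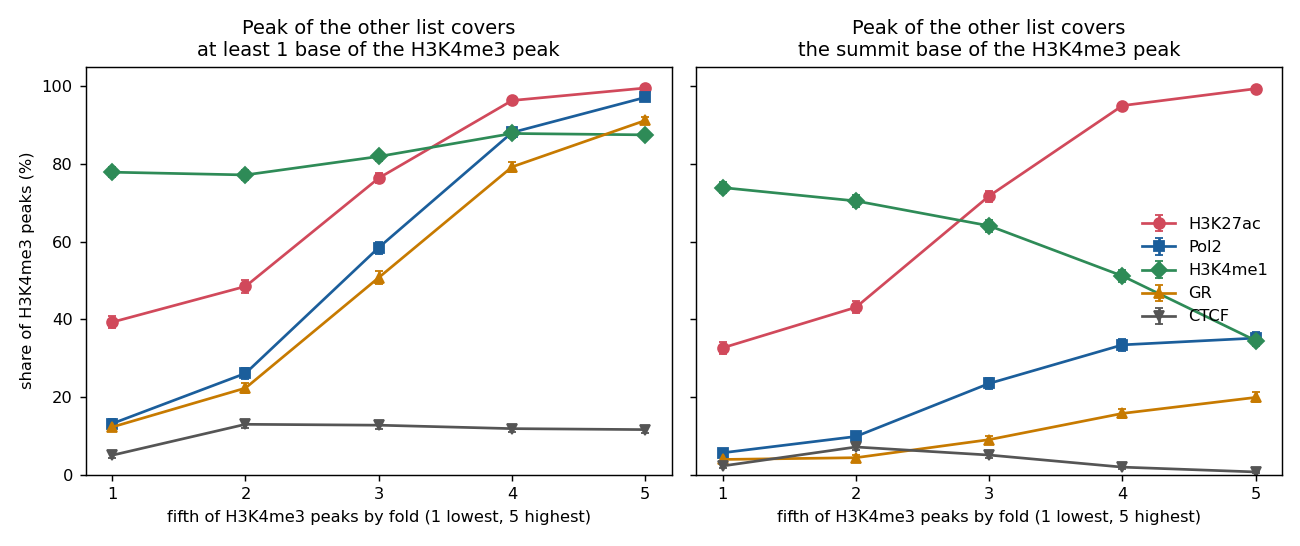
H3K4me3 peaks are split into quintiles by fold, and lines give the percentage of each quintile covered by a peak of the other lists at 1 base or more (left) or at the summit base (right), with exact 95% intervals. H3K4me1 is nearly level on the left and goes from 73.9 to 34.5% on the right, while H3K27ac reaches over 99% in both.

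The 4910 peaks with no TSS within 1 kb were mixed. By their summits 2454 lay between protein-coding genes, 1797 in introns and 659 in exons, at a median of 15041 bases from a protein-coding TSS. Another annotated start lay within 1 kb of 284. H3K27ac and H3K4me1 both overlapped 2060 of them (42.0%), with a median fold of 7.04. H3K4me1 without H3K27ac overlapped 1399, with 5.61, and 522 overlapped none of the 5 lists, with 5.71. GR overlapped 39.5% of the peaks with both marks and 7.08% of those with H3K4me1 without H3K27ac.

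A start in RefSeq annotation lay within 1 kb of 839 of the 4910 no-TSS peaks (17.1%). Of the 57 no-TSS peaks in the highest quintile of fold, 26 had one (45.6%). Several of the widest and of the strongest no-TSS peaks covered a start in other annotation. The widest, 4417 bases at chr9:72692298-72696714, covered a RefSeq start of Nedd4, a ubiquitin ligase. Another, 3561 bases at chr15:102997953-103001513, covered one of Hoxc6, and one of 3925 bases at chr3:96499449-96503373, covered a tRNA gene. The peak of 4010 bases at chr8:84200429-84204438 covered the start of Gm37352, a gene that is neither protein-coding nor lncRNA in the annotation used. The lncRNA Gm26887 started 2762 bases from it and Mir23a 4080 bases. The peak of 3540 bases at chr15:85669831-85673370 had its nearest RefSeq start at the lncRNA Lncppara, 30403 bases away. Peaks with folds of 81.5, 79.9 and 78.6 lay at chr8:20296803-20297576, chr8:20122159-20122962 and chr8:19784479-19785308. They covered the starts of 6820431F20Rik, Gm21769 and Gm10060, which are neither protein-coding nor lncRNA genes in the annotation used, and were alike in width (774 to 830 bases) and GC content (65.6 to 66.5%). Whether their reads map to one place was not tested.

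One group of no-TSS peaks stood apart: 485 overlapped a CTCF peak and none of the H3K27ac, Pol2, H3K4me1 or GR lists. Their median fold was 11.8, against 5.71 for the 522 that overlapped no list, at median widths of 249 and 250.5 bases. They lay far from genes, at a median of 135989 bases from a protein-coding TSS. They include the highest folds in the list, 95.4 at chr6:47753182-47753532 and 93.8 at chr17:79087757-79088345. The 60 bases either side of these 2 summits (GRCm38.p6, plus strand, CpG in capitals) show what kind of sequence is under them.
Chromosome 6 summit, chr6:47753286-47753406: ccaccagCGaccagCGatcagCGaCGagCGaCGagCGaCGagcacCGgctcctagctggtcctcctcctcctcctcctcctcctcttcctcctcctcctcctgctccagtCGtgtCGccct
Chromosome 17 summit, chr17:79088106-79088226: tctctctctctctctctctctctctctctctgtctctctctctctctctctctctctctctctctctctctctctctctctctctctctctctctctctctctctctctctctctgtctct
The chromosome 17 window is a run of TC repeats. The chromosome 6 peak was unlike most of the group. It was soft-masked over 16.5% of its bases with a GC content of 68.4%, where the medians of the 485 were 100% and 41.2%. In all, 455 of the 485 peaks (93.8%) were soft-masked as repeat over at least 50% of their bases, against 0.386% of protein-coding peaks and 27.8% of the 522.

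In these 485 peaks the H3K4me3 and CTCF peaks nearly coincided. The summits were a median of 4 bases apart (quartiles 0 and 27), and 427 of the 485 were within 50 bases. For the 400 no-TSS peaks that overlapped CTCF and another list the median was 181 bases, with 25 within 50 bases. For the 1193 protein-coding peaks with CTCF it was 277, with 18. Wider peaks leave room for larger distances, and the median H3K4me3 widths of the 485, 400 and 1193 peaks were 249, 478.5 and 1218 bases. The folds of the H3K4me3 and CTCF peaks had a rho of 0.859 across the 485, 0.125 across the 400 and 0.184 across the 1193. The strongest peak is an exception, with a fold of 95.4 against 8.96 for CTCF, while the next had 93.8 against 98.5. The consensus sequence of CTCF lay within 100 bases of 3 of 486 CTCF summits at these places (0.617%). It did so at 10.7% of all 2158 CTCF peaks that overlapped H3K4me3, the 486 among them. At the 4352 CTCF peaks that did not overlap H3K4me3 the share was 31.2%. These points share the input library, and both lists were called against it. The part of the shared input, of repeats and of chromatin in this pattern was not tested. Without the 485, 73.8% of peaks were near a protein-coding TSS, CTCF overlapped 8.61% of peaks, and among no-TSS peaks CTCF overlap was 9.04% in place of 18.02%.

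**Figure D5:**
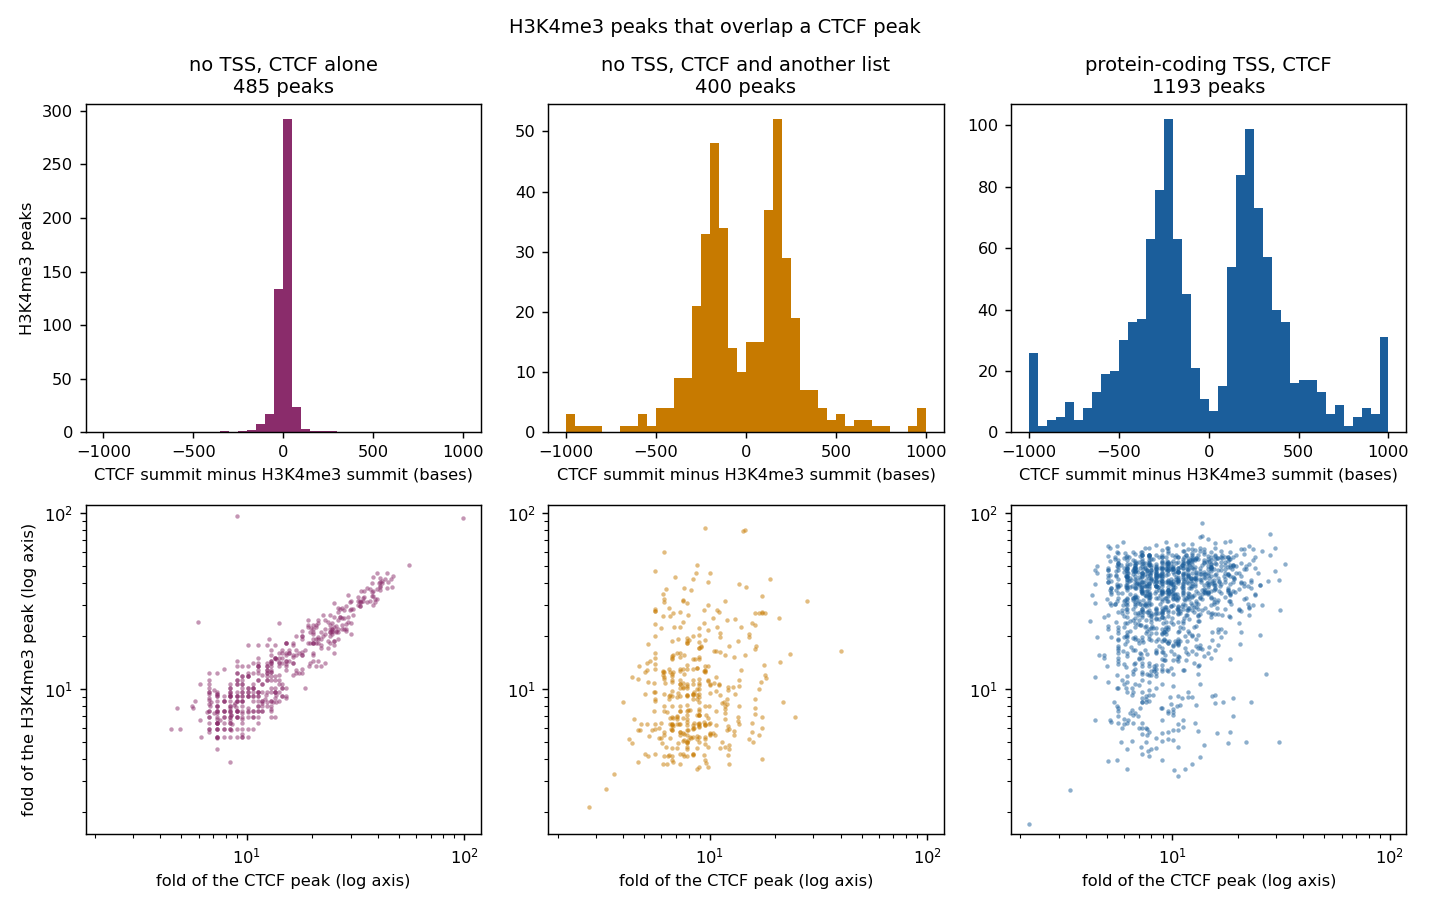
H3K4me3 peaks that overlap a CTCF peak are shown in 3 groups. The top row counts them by the distance from the H3K4me3 summit to the nearest CTCF summit in bases, with distances beyond the axis put in the end bins, and the bottom row plots both folds on log axes. In the first group the distances pile up at 0 and the folds follow each other, while the other groups have 2 humps either side of 0, with medians of 181 and 277 bases.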

How the data were processed

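Each of the 6 antibodies has 1 library, and reads were not analysed here. Tools named in the submitters' processing notes are MACS2 (no version), Bowtie 1.0.0 and bcl2fastq 2.17.1.14, and the build is mm10. Their roles, thresholds and the number of reads were not given in the sources used here, so depth is unknown. For H3K4me3 and CTCF the authors deposited peak starts, ends and summits in bases, an integer score, a linear fold (ratio) over input, a −log10 p-value and a −log10 q-value. With no header in the file, columns were told apart by their values: in all 19818 peaks the authors' score was 10 times the −log10 q-value, cut to a whole number. The other 4 deposited lists held positions and names. Reads from PCR carry no molecular identifiers here and so may repeat molecules, which no interval covers.

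Peaks on chromosomes Y (21) and M (7) were left out. Starts came from GENCODE vM21 on GRCm38: those of protein-coding transcripts for the 21755 protein-coding genes, of which 85 had none, and those of all transcripts for the 9603 lncRNA genes. A peak belonged to a start within 1000 bases of any of its bases. Overlap meant at least 1 shared base. Soft-masking and composition were read from the RefSeq genome of the same build. The CTCF consensus was searched as a fixed pattern of bases on both strands within 100 bases of summits. It matched at 24.4% of all 6510 CTCF peaks. Shares carry exact Clopper-Pearson 95% intervals. Python 3.11.15 with numpy 2.4.6, pandas 2.3.3, scipy 1.17.1 and matplotlib 3.10.9 was used, and the interval functions were tested on simulated data.

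Named are the genes or starts at the 10 strongest and 10 widest peaks, the 5 strongest and 5 widest of the lncRNA-only and no-TSS classes, the 3 lowest folds, up to 3 members of highest fold in each of 21 gene lists, and 25 fixed genes. The group shared with CTCF alone was singled out after its values were seen. The members and lists were chosen with earlier results of these data known. A few members that the naming rule would select are not reported here. The alternatives are in the closing section.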

Additional observations from a re-analysis of the deposited data

Results flagged for a closer look

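Of the peaks left out above, 21 lay on the Y chromosome, with folds from 3.40 to 23.0 (median 11.3) and a median width of 264 bases. Another 7 lay on the mitochondrial genome, which has no histones, with folds from 1.63 to 2.66 (median 2.30) and a median width of 556 bases. Both are signals in places that no comparison used.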

How the results depend on the processing

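The 12 results were recomputed under the alternatives that apply to each, which gave 64 values, and 12 more values without the 485 no-TSS peaks shared with CTCF alone, a choice made after seeing the data. Of these, 15 values stayed within the counting interval or within 1.5 times the count, and 61 moved. For the rho, the ratio of folds and the Pol2 difference, any change counted as moved. No rule for a reversal was applied. Each rho and each Pol2 difference listed below is positive and each ratio is above 1, although in the narrowest quintile of width the ratio was 0.985. The count of marked protein-coding genes, 13310, ranged from 10032 with the 50% of peaks of highest fold to 13817 with a window of 5 kb. Protein-coding, lncRNA-only and no-TSS shares were 80.1, 3.74 and 16.2% with a window of 5 kb, 62.3, 3.73 and 33.9% with 1 TSS per gene, and 93.5, 1.68 and 4.87% in the strongest 50%. Protein-coding and no-TSS shares were 69.7 and 27.1% by peak midpoint, 70.4 and 26.4% by summit, 74.6 and 22.3% with peaks under 1 kb apart merged, and 73.8 and 22.9% without the 485. With RefSeq they were 72.5 and 24.3%. Overlap with H3K27ac, Pol2, H3K4me1, GR and CTCF, in that order, was 54.3, 5.19, 59.6, 2.20 and 2.93% when 50% of the H3K4me3 peak had to be covered, 75.6, 61.1, 90.5, 56.6 and 12.8% within 1 kb, 68.3, 21.5, 58.8, 10.6 and 3.44% at the summit, 95.5, 88.1, 86.6, 80.4 and 11.7% in the strongest 50%, 74.0, 60.9, 84.6, 55.3 and 12.3% merged, and 73.8, 58.0, 84.5, 52.4 and 8.61% without the 485. The rho of width and fold, 0.777, was 0.649 at protein-coding peaks, 0.785 with −log10 q, 0.682 merged and 0.785 without the 485. The ratio of median folds, 4.31, was 4.35 by summit, 3.59 with 5 kb, 1.81 within quintiles of width, 4.19 merged and 4.56 without the 485. The Pol2 difference, 83.9 percentage points, was 80.8 ranked by width, 81.4 at protein-coding peaks, 35.8 within quintiles of width, 29.5 at the summit and 84.2 without the 485. The cause was not tested. No paired analysis was possible because each antibody has 1 library. Peak lists without read counts limit what weak H3K4me3 can be seen: an absent peak does not show an absent mark.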

Other observations

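The X chromosome had a smaller share of marked genes and lower folds than the autosomes. Of its 948 protein-coding genes, 408 had a peak within 1 kb of a TSS (43.0%, exact 95% interval 39.9 to 46.3%), against 12902 of 20807 autosomal genes (62.0%, 61.3 to 62.7%). The lowest share on an autosome was 49.8% and the highest 73.9%. The median fold of its marked genes was 19.8, where the medians of single autosomes ran from 31.2 to 36.8, and the median width was 1157 bases against 1251 to 1368. Among genes with a Pol2 peak at a TSS the median folds were 24.1 on X (262 genes) and 39.0 on the autosomes (9909 genes). The median promoter CpG ratio of marked genes was 0.635 on X and 0.741 on the autosomes. The labels do not give the sex of the animals, and the part of sex and of CpG content in this difference was not tested.

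The 50 protein-coding genes with Pol2 but no H3K4me3 peak within 1 kb had a median promoter CpG ratio of 0.242. For 14 of them an H3K4me3 peak lay within 5 kb, and the median distance to the nearest was 9003 bases. Besides Myh1 and Myh2 they included Myoz2, a slow-fibre protein of the Z-disc with the nearest peak at 49775 bases, and Pln, the inhibitor of the calcium pump, at 40673 bases, both named after their values were seen. The 50 were not only muscle genes, and the immune genes Cd68, Cd74 and H2-Aa were among them. So was Rhof, although the Setd1b peak covered a RefSeq start of it.

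Among marked protein-coding genes in the top quintile of width, divided at the median fold of all marked genes, 778 had a fold below the median, and their median promoter CpG ratio was 0.666, with TATAAA in 12.7% of windows. The 1892 with a fold at or above the median had 0.844 and 5.55%. GR lay within 1 kb of a TSS in 78.4% of the former and 95.8% of the latter, and in 69.2% of all marked genes.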
